A study of Homo sapiens with 27 samples.

Results

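The genes described here are 10 members of the transforming growth factor beta (TGF-beta) and activin pathway, out of 19310 protein-coding genes shared by all libraries. They were taken by symbol from a fixed list, which was chosen with earlier results of these data known. They are the ligands TGFB1, TGFB2 and TGFB3, the activin A subunit gene INHBA, the receptors TGFBR1 and TGFBR2, the signal carrier SMAD3, its inhibitor SMAD7, and the targets CCN2 and TGFBI. All 10 had 1 gene identifier each and passed the filter on low counts in RNA-seq (13293 genes tested) and in Ribo-seq (11766 genes tested). The filter took all states together.

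The cells were IMR90, an established line of human fetal lung fibroblasts with the genotype given as WT, in 5 states. Cycling cells were taken at 40 to 60% confluency without treatment, and quiescent cells are labelled as contact-inhibited. One senescent state followed 15 Gy of ionizing radiation with harvest 10 days later, and the other followed 3 rounds of 50 µM etoposide, a topoisomerase II poison, over 10 days. The last state was cycling cells given 25 nM thapsigargin, an inhibitor of the SERCA calcium pump that causes endoplasmic reticulum stress, for 3 h, in a medium listed without the antibiotics and antimycotics of the other states. RNA-seq counts the RNA of a gene, and Ribo-seq counts the RNA fragments that ribosomes shield from RNase, so the latter depends on the amount of RNA and on the ribosomes on it. There were 13 RNA-seq libraries (2 cycling, 2 thapsigargin and 3 of each other state) and 14 Ribo-seq libraries (2 thapsigargin and 3 of each other state). No label says that libraries of a state came from separate cultures, so p-values measure only the spread between these libraries, which may be technical. All cells come from 1 line, and in bulk samples fewer cells that make an RNA and less of it per cell cannot be told apart.

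Gene counts per library ran from 20635503 to 57119841 in RNA-seq and from 1936976 to 19996104 in Ribo-seq, with the thapsigargin Ribo-seq libraries the shallowest. Levels are given as CPM (counts per 1000000 counts in a library) after library-size scaling, and they compare states for 1 gene, not genes with each other, since they are not per length. The 10 fibroblast markers summed to between 9100 and 14710 CPM in RNA-seq, while the epithelial markers summed to at most 0.809 CPM and the blood cell markers to at most 1.27 CPM. The endothelial list summed to between 4.97 and 90.2 CPM, nearly all of it from TEK, while PECAM1, CDH5, KDR and VWF did not exceed 2.53 CPM. The thapsigargin RNA-seq libraries had 1.35 to 1.40% unmapped reads against 27.8 to 40.6% in the other RNA-seq libraries. No untreated library shares this trait or the medium listed for thapsigargin. Their part in the results for thapsigargin was not tested and cannot be told apart from that of the drug.

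TGF-beta ligands are secreted in a latent form held in the extracellular matrix. Once released, they bring together a type II receptor (TGFBR2) and a type I receptor (TGFBR1), which phosphorylate SMAD2 and SMAD3, and these move with SMAD4 to the nucleus and act on target genes. Activin A, a dimer of INHBA chains, acts through its own receptors on the same SMADs, and SMAD7 is a target that feeds back to block the type I receptor. In fibroblasts the pathway is known for matrix production and for the contractile state, and its ligands are among the factors that senescent cells secrete.

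CCN2 and INHBA had the widest gaps between the 2 senescent states in both assays, and TGFB2 also differed in both. The 250 bases before annotated starts of CCN2, TGFB2 and INHBA are shown (RefSeq, build GRCh38.p14). TGFBR1, TGFBR2 and TGFBI differed in both assays as well, and their windows are not shown. All 10 members matched the promoter table, with 25 windows between them, because some genes have several starts. Each window was searched on both strands for GGAATG, a core of TEAD motifs, CAGAC, a core bound by SMADs, and TGANTCA, the AP-1 motif. Matches are in capitals.
CCN2, chr6:131951373-131951622, minus strand: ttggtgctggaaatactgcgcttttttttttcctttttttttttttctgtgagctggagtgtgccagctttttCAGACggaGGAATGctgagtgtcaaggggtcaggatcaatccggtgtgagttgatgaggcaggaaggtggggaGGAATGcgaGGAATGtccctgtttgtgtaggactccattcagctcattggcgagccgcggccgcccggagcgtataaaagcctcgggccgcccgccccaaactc
TGFB2, chr1:218345086-218345335, plus strand: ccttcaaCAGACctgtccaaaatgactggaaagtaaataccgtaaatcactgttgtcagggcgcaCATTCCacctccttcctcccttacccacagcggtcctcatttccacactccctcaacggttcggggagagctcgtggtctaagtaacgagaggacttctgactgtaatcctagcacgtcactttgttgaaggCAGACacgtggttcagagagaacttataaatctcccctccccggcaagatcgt
INHBA, chr7:41703091-41703340, minus strand: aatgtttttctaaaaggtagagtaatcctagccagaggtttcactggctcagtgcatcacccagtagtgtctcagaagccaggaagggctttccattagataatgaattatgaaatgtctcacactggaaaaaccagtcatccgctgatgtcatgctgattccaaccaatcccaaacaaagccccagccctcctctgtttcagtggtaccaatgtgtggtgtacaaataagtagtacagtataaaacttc

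The CCN2 window held GGAATG 3 times, beginning 169, 104 and 95 bases before the start, and CAGAC once, 177 bases before it. Of all 35116 windows of this length in the table, 11.9% held GGAATG at least once and 0.0826% held it 3 or more times. The TGFB2 window held 2 copies of CAGAC, a motif found at least once in 38.0% of all windows, and 1 copy of GGAATG read on the other strand. The INHBA window held none of the 3 motifs. That window lies inside the span annotated for the gene (chr7:41685114-41705406), so the bases before the outer end of the span were not searched. Over the 25 windows of the members, GGAATG was found in 3, CAGAC in 11, and TGANTCA in 1, which is a window of SMAD3. Of all windows, 11.9% held GGAATG, 38.0% CAGAC and 6.57% TGANTCA. The windows of TGFBR2 and TGFBI held none of the 3 motifs, and some of those of TGFBR1 held GGAATG or CAGAC. None of the matches shown overlap each other. A match is a description of these letters, not a site or a cause, and no match says only that these letters are not in this window.

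Irradiated cells had lower levels of most of the 10 genes than etoposide cells, in RNA and on ribosomes. In RNA-seq 7 of 10 were lower after radiation (INHBA, CCN2, TGFB2, TGFBR1, TGFBR2, TGFBI and SMAD7), 0 were higher, and the median difference was -0.98 on the log2 scale. Of all genes tested, 22.6% differed between the 2 states, 9.67% higher and 12.9% lower after radiation, with a median of 0.06. In Ribo-seq 7 of 10 were lower (INHBA, CCN2, TGFB2, TGFBR1, TGFBR2, TGFBI and TGFB1), 0 were higher, and the median was -1.71, where 22.5% of all genes differed, 8.82% higher and 13.7% lower. A call here means an adjusted p under 0.05 in edgeR's quasi-likelihood test fitted over all 5 states. With 1 library left out, the counts ran from 6 to 7 in both assays. Without irradiated RNA-seq replicate 1 the adjusted p of TGFBR1 was 0.0551. SMAD7 lost its RNA call without etoposide replicate 1 (0.0873), irradiated replicate 2 (0.0837) or irradiated replicate 3 (0.0639). TGFB1 lost its Ribo-seq call without irradiated Ribo-seq replicate 1 (0.067) or 3 (0.0586).

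**Figure D1:**
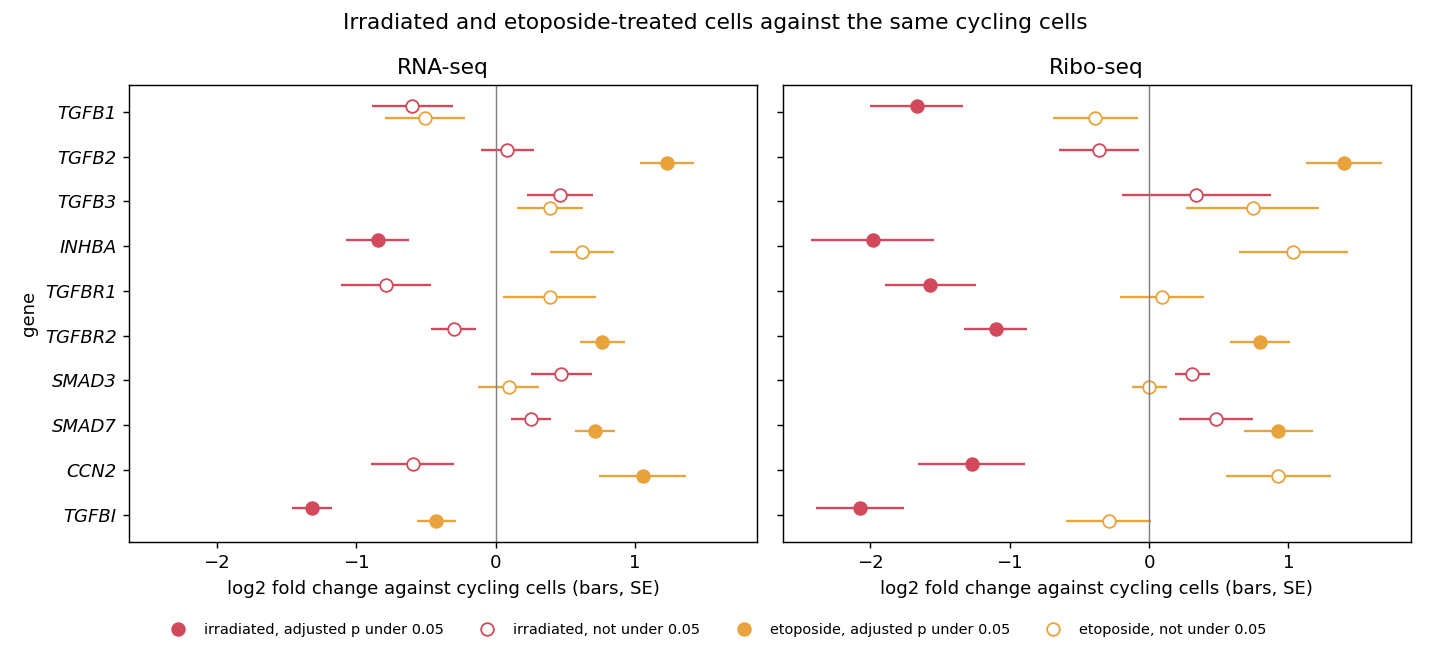
Log2 fold change of each gene against cycling cells after radiation and after etoposide, in RNA-seq (left) and Ribo-seq (right); bars are standard errors, filled points have an adjusted p under 0.05, and both states share the cycling libraries. INHBA lies at -1.98 after radiation and 1.04 after etoposide in Ribo-seq, and SMAD3 lies near 0 or above it in both.

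INHBA (ENSG00000122641, chr7:41685114-41705406, GRCh38.p14 as for all positions), whose product dimerizes to activin A, had the widest gap between the senescent states in Ribo-seq, and the second widest after CCN2 in RNA-seq. Its RNA was at 145 and 126 CPM in cycling cells, 58.5, 84.6 and 129 in quiescent cells, 74.3, 70.5 and 81.4 after radiation, 195, 217 and 214 after etoposide, and 459 and 467 after thapsigargin. The irradiated libraries lay below every cycling library and the etoposide libraries above every one, with thapsigargin higher still. On ribosomes INHBA was at 88.8, 101 and 99.3 CPM in cycling cells, 15.5, 50.6 and 86.7 in quiescent cells, 21.1, 23.2 and 29.3 after radiation, 196, 204 and 192 after etoposide, and 144 and 224 after thapsigargin. The ranges of irradiated, cycling and etoposide cells did not overlap, while the quiescent libraries spread from below the irradiated ones to just under the cycling ones.

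Against cycling cells, INHBA RNA was 1.80-fold lower after radiation (log2 -0.85 ± 0.22 SE, edgeR adjusted p = 0.0101). The call ended without cycling RNA-seq replicate 1 (adjusted p 0.0887). The Ribo-seq level fell 3.95-fold (log2 -1.98 ± 0.44, adjusted p = 0.00283). After etoposide the differences from cycling cells, log2 0.62 ± 0.23 in RNA-seq and 1.04 ± 0.39 in Ribo-seq, did not pass (adjusted p 0.0514 and 0.057). Irradiated cells were 2.77-fold lower than etoposide cells in RNA and 8.10-fold lower on ribosomes (log2 -3.02 ± 0.45, adjusted p = 0.000709).

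**Figure D2:**
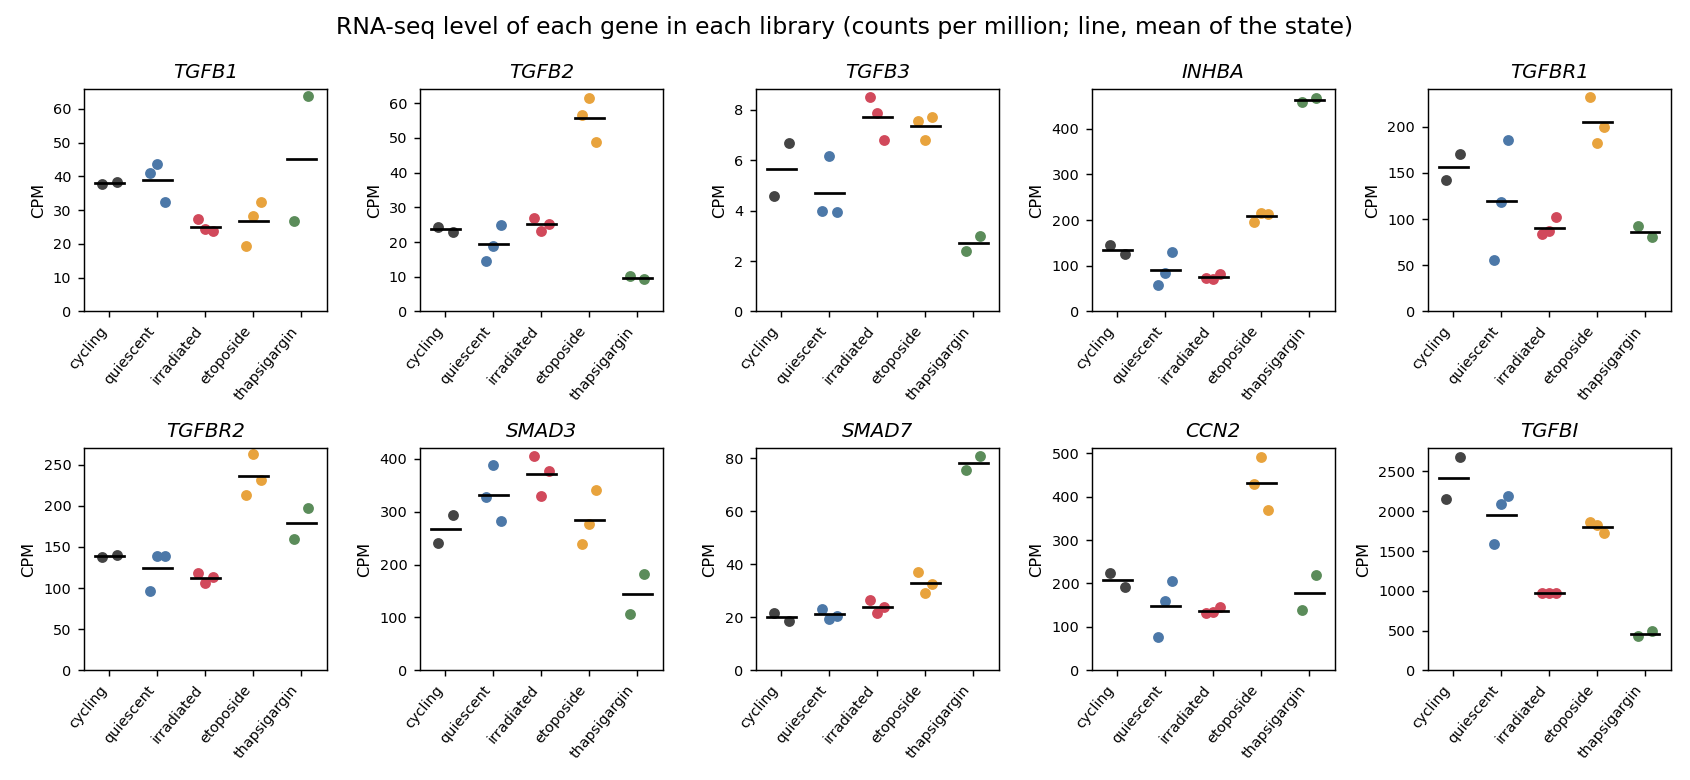
RNA-seq level of the 10 genes (CPM, y axis from 0) by state; each point is 1 library and each line the mean of the state. Etoposide libraries are the highest for TGFB2, TGFBR2 and CCN2, and thapsigargin libraries for INHBA and SMAD7.

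TGFB2 (ENSG00000092969, chr1:218345336-218444619), a ligand that needs a co-receptor for firm binding, rose after etoposide. Its RNA was at 24.4 and 23.0 CPM in cycling cells, 14.5, 18.9 and 25.0 in quiescent cells, 27.1, 23.1 and 25.2 after radiation, 56.7, 61.5 and 48.8 after etoposide, and 10.1 and 9.34 after thapsigargin. Every etoposide library lay above every other library, and both thapsigargin libraries lay below all others. The etoposide level was 2.35-fold that of cycling cells in RNA-seq (log2 1.23 ± 0.20, adjusted p = 0.000301) and 2.64-fold in Ribo-seq (log2 1.40 ± 0.27, adjusted p = 0.00126). After radiation TGFB2 differed from cycling cells by log2 0.08 ± 0.19 in RNA and -0.36 ± 0.29 on ribosomes (adjusted p 0.771 and 0.349), so a difference was not detectable.

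On ribosomes TGFB2 was at 24.7, 31.0 and 26.5 CPM in cycling cells, 10.6, 24.0 and 29.6 in quiescent cells, 21.6, 17.9 and 24.3 after radiation, 66.6, 80.7 and 69.7 after etoposide, and 8.76 and 8.40 after thapsigargin. The order of states was that of the RNA at both ends, with thapsigargin lowest and etoposide highest.

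TGFB1 (ENSG00000105329, chr19:41330323-41353922), the ligand most often studied in fibrosis, fell on ribosomes after radiation. Its Ribo-seq level was 56.7, 52.0 and 75.0 CPM in cycling cells, 17.6, 28.6 and 54.3 in quiescent cells, 17.6, 23.6 and 17.4 after radiation, 40.5, 51.1 and 48.8 after etoposide, and 28.5 and 24.1 after thapsigargin. The irradiated and thapsigargin libraries lay below every cycling library. The fall after radiation was 3.17-fold (log2 -1.67 ± 0.33, adjusted p = 0.00136). In RNA-seq TGFB1 averaged 38.0 ± 0.580 CPM (SD, n = 2) in cycling cells, 25.2 ± 1.94 (n = 3) after radiation and 26.7 ± 6.69 (n = 3) after etoposide, and neither difference passed (adjusted p 0.128 and 0.190), although neither range overlapped the cycling one. On irradiated and cycling libraries alone TGFB1 RNA was called lower (log2 -0.62, adjusted p 0.000191). The thapsigargin RNA libraries were far apart, at 26.8 and 63.7 CPM, and without replicate 1 of that state TGFB1 was called higher (adjusted p 0.0434).

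TGFB1 is also the member with the most reads on the opposite strand: 31.7 to 49.8% of its reads on both strands in RNA-seq and 22.7 to 59.7% in Ribo-seq. For the other 9 members the share was at most 7.69% in any library. Counts on the opposite strand are not in the values above, and the part of such reads in the TGFB1 result was not tested beyond the count of calls with both strands summed, in which no call of any member was lost.

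TGFB3 (ENSG00000119699, chr14:75958097-75983011), a ligand known for its part in palate formation, had 98 to 286 RNA counts a library and 0 to 52 footprints. Its RNA was 4.60 and 6.69 CPM in cycling cells, 2.41 and 2.98 after thapsigargin, and between 6.80 and 8.53 in both senescent states. The senescent libraries lay above every cycling library, but neither difference passed (adjusted p 0.149 after radiation and 0.219 after etoposide). The thapsigargin level was called lower (log2 -1.05 ± 0.26, adjusted p = 0.0107), a call that ended without cycling RNA-seq replicate 2 (0.124) or thapsigargin replicate 1 (0.0563). In Ribo-seq thapsigargin replicate 1 held 0 footprints of TGFB3, which allows up to 1.55 CPM at a limit of 3 counts, and replicate 2 held 5.

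The type II receptor gene TGFBR2 (ENSG00000163513, chr3:30606356-30694142) rose after etoposide in both assays. RNA-seq gave 137 and 140 CPM in cycling cells, 96.0, 139 and 139 in quiescent cells, 118, 107 and 113 after radiation, 213, 262 and 231 after etoposide, and 159 and 198 after thapsigargin. Ribo-seq gave 97.8, 93.3 and 108 CPM in cycling cells, 32.9, 62.4 and 75.5 in quiescent cells, 42.9, 48.7 and 48.4 after radiation, 166, 196 and 157 after etoposide, and 59.1 and 65.6 after thapsigargin. In both assays all etoposide libraries were above all others, and on ribosomes the cycling libraries were above the other 3 states. The rise after etoposide was 1.70-fold in RNA (log2 0.77 ± 0.16, adjusted p = 0.0026) and 1.73-fold on ribosomes (log2 0.79 ± 0.22, adjusted p = 0.0112). After radiation the footprints fell 2.14-fold (log2 -1.10 ± 0.23, adjusted p = 0.00176), while the RNA differed by log2 -0.30 ± 0.16 (adjusted p 0.159).

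The type I receptor gene TGFBR1 (ENSG00000106799, chr9:99103647-99154192) had 83.5 to 102 CPM of RNA after radiation, 183 to 232 after etoposide, and 143 and 171 in cycling cells. The quiescent RNA libraries ran from 55.4 to 186 CPM and so covered most of this range. Against cycling cells TGFBR1 RNA did not pass in either senescent state (log2 -0.79 ± 0.32 after radiation, adjusted p 0.0766, and 0.39 ± 0.33 after etoposide, adjusted p 0.392), although neither range overlapped the cycling one. Both were called on the 2 states alone (7.32e-06 and 0.0321) and without the quiescent libraries (0.000634 and 0.0361). The 2 senescent states differed from each other (log2 -1.17 ± 0.30, adjusted p = 0.0121). Its footprints were between 25.8 and 29.0 CPM after radiation against 71.5, 89.4 and 82.0 in cycling cells, with no overlap, and fell 2.97-fold (log2 -1.57 ± 0.33, adjusted p = 0.00183). After etoposide the footprint level was 85.3, 81.2 and 92.5 CPM, within the cycling range but for the highest library.

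**Figure D3:**
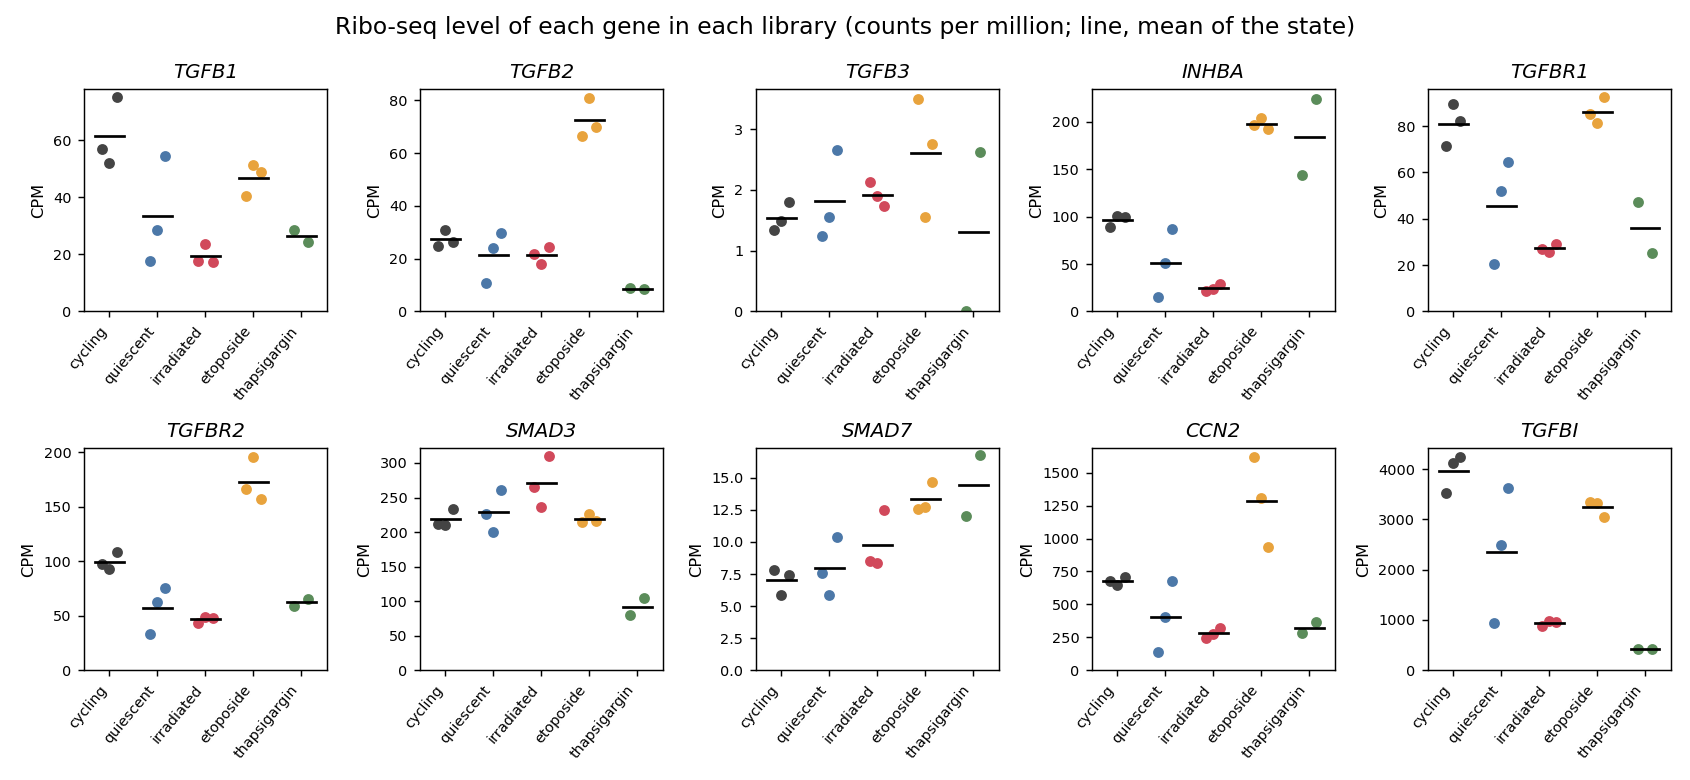
Ribo-seq level of the 10 genes (CPM, y axis from 0) by state; each point is 1 library and each line the mean of the state. Quiescent replicate 1, the leftmost point of that state, is the lowest of its state for all genes but SMAD3 and SMAD7.

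SMAD3 (ENSG00000166949, chr15:67065602-67195169), which carries the signal of both TGF-beta and activin receptors to the nucleus, was not called between the 2 senescent states. Its RNA ran from 329 to 406 CPM after radiation, 239 to 341 after etoposide, 282 to 388 in quiescent cells and 240 to 294 in cycling cells. Nor did it pass in any other comparison among these 4 states in the fit of all 5. On the 2 states alone SMAD3 was higher after radiation than in cycling cells in RNA (0.00271) and on ribosomes (0.0166, and 0.034 without the quiescent libraries), and than in etoposide cells on ribosomes (0.0344). The interval of the difference between irradiated and etoposide cells, 2 SE on each side, ran from -0.01 to 0.77 in RNA and from 0.05 to 0.56 on ribosomes. After thapsigargin the level was 106 and 182 CPM in RNA and 80.0 and 104 CPM on ribosomes, below every library of the other states. On the log2 scale its RNA fell by 0.89 ± 0.24 (adjusted p = 0.016). Its footprints fell by 1.24 ± 0.15 (adjusted p = 3.8e-05). The RNA call ended without cycling replicate 2 (adjusted p 0.122) or thapsigargin replicate 1 (0.111).

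SMAD7 (ENSG00000101665, chr18:48919853-48950965), the feedback inhibitor of the receptors, rose after etoposide and after thapsigargin in both assays. RNA-seq gave 21.5 and 18.5 CPM in cycling cells, 23.0, 19.5 and 20.6 in quiescent cells, 26.3, 21.5 and 23.9 after radiation, 36.9, 29.3 and 32.4 after etoposide, and 75.7 and 80.9 after thapsigargin. The etoposide libraries lay above all cycling, quiescent and irradiated libraries, and the thapsigargin libraries above those. The rise in RNA was 1.64-fold after etoposide (log2 0.71 ± 0.15, adjusted p = 0.00198) and 3.90-fold after thapsigargin (log2 1.96 ± 0.16, adjusted p = 2.99e-06). On ribosomes the level was 7.03 ± 1.03 CPM (SD, n = 3) in cycling cells, 13.3 ± 1.18 (n = 3) after etoposide and 14.4 ± 3.36 (n = 2) after thapsigargin, differences of log2 0.93 ± 0.25 and 1.04 ± 0.31 (adjusted p = 0.0105 and 0.015). The etoposide call on ribosomes ended without cycling Ribo-seq replicate 2 (0.0519) and the thapsigargin call without thapsigargin Ribo-seq replicate 2 (0.126).

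CCN2 (ENSG00000118523, chr6:131948176-131951372), also known as CTGF, encodes a matrix-associated protein that is a target of TGF-beta and of YAP. Its RNA was at 223 and 191 CPM in cycling cells, 77.2, 159 and 207 in quiescent cells, 132, 134 and 146 after radiation, 429, 492 and 370 after etoposide, and 139 and 220 after thapsigargin. Every etoposide library lay above every library of the other states, and every irradiated library below the cycling ones. CCN2 RNA rose 2.08-fold after etoposide (log2 1.05 ± 0.31, adjusted p = 0.0182), a call that ended without cycling RNA-seq replicate 1 (0.0745), cycling replicate 2 (0.128) or etoposide replicate 2 (0.057). After radiation the RNA difference did not pass (log2 -0.60 ± 0.30, adjusted p 0.14).

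Footprints of CCN2 were at 679, 646 and 710 CPM in cycling cells, 142, 404 and 677 in quiescent cells, 245, 278 and 320 after radiation, 1616, 1309 and 939 after etoposide, and 279 and 363 after thapsigargin. The fall after radiation was 2.42-fold (log2 -1.27 ± 0.38, adjusted p = 0.0167) and ended as a call without irradiated Ribo-seq replicate 1 (0.0613). Irradiated cells had 4.59-fold fewer CCN2 footprints than etoposide cells (log2 -2.20 ± 0.39, adjusted p = 0.00179).

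TGFBI (ENSG00000120708, chr5:136028988-136063818) encodes a secreted matrix protein named for its induction by TGF-beta, and it fell after radiation and after thapsigargin in both assays. Its RNA was at 971, 974.5 and 972 CPM after radiation and 427 and 492 after thapsigargin, with no overlap with the 1861, 1827 and 1728 CPM after etoposide, the 1590 to 2194 CPM in quiescent cells or the 2160 and 2687 CPM in cycling cells. It fell 2.49-fold after radiation (log2 -1.32 ± 0.14, adjusted p = 1.16e-05) and 5.27-fold after thapsigargin (log2 -2.40 ± 0.16, adjusted p = 8.36e-07). The smaller fall after etoposide (log2 -0.42 ± 0.14, adjusted p = 0.0332) ended as a call when cycling replicate 2 (0.315) or any etoposide library (0.0578 to 0.0916) was left out. On ribosomes TGFBI averaged 3958 ± 387.6 CPM (SD, n = 3) in cycling cells, 940.0 ± 45.6 (n = 3) after radiation, 3240.0 ± 167 (n = 3) after etoposide and 429.6 ± 3.54 (n = 2) after thapsigargin. These were falls of 4.21-fold after radiation (log2 -2.07 ± 0.32, adjusted p = 0.000188) and 9.21-fold after thapsigargin (log2 -3.20 ± 0.39, adjusted p = 3.68e-05), and the difference after etoposide did not pass (log2 -0.29 ± 0.30, adjusted p 0.503). The etoposide libraries were all below the cycling ones, and TGFBI was called lower on these 2 states alone (0.023) and without the quiescent libraries (0.0129).

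Counted over all members, radiation gave 2 lower and 0 higher calls of 10 in RNA-seq against cycling cells (34.9% of all genes called, 16.2% higher and 18.8% lower) and 6 lower and 0 higher in Ribo-seq (40.5% called, 19% higher and 21.6% lower). Etoposide gave 4 higher and 1 lower in RNA-seq (34.6% called, 16.8% higher and 17.8% lower) and 3 higher and 0 lower in Ribo-seq (33.9% called, 16.8% higher and 17.1% lower). The median difference of the 10 was -0.45 in RNA and -1.19 on ribosomes after radiation, and 0.51 and 0.77 after etoposide, where the medians of all genes tested lay between 0.00 and 0.03. Fitted on the 2 states alone, the RNA count after radiation was 7 (TGFB1, TGFBR1, TGFBR2 and CCN2 also lower and SMAD3 higher), with 53.1% of all genes called, and the Ribo-seq count after etoposide was 7 (INHBA and CCN2 also higher, TGFB1 and TGFBI lower), with 52.3% called. Without the quiescent libraries these counts were 4, with 40.7% of all genes called, and 6, with 39.7%. The 2 senescent states share their cycling controls, so the direct comparison of the states above is the test of their difference.

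Translational efficiency, the Ribo-seq level relative to the RNA-seq level, was tested as an interaction of assay and state over all 27 libraries. After radiation it was below that of cycling cells for 9 of the 10 members, with a median of -0.73 on the log2 scale. The estimates ran from -1.15 ± 0.53 for INHBA and -1.09 ± 0.47 for TGFB1 to 0.21 ± 0.29 for SMAD7. Over all genes tested, 6423 of 11715 estimates were below 0 and the median was -0.032. No member passed in edgeR (0 of 10; 0.0256% of all genes, 3 of 11715, passed, 0.0171% higher and 0.00854% lower), 3 members had an unadjusted p under 0.05 (TGFBR2, TGFB1 and INHBA, against 6.10% of all genes), and DESeq2 also called 0. The call depended on which libraries entered the fit. Fitted on irradiated and cycling libraries alone, 6 members were lower, where 4.79% of all genes were called: INHBA (adjusted p 0.000718), TGFBR2 (0.00227), TGFB1 (0.00553), TGFBI (0.0079), TGFBR1 (0.0112) and CCN2 (0.0142). Fitted without the quiescent libraries, INHBA, TGFBI and TGFBR2 were lower, with 1.02% of all genes called.

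Between irradiated and etoposide cells the efficiency of INHBA differed by -1.54 ± 0.50 and that of TGFB1 by -1.19 ± 0.45. Again 0 of 10 members and 0 genes in all passed in the fit of all states, 4 members had an unadjusted p under 0.05 (5.15% of all genes), and DESeq2 called 0 members. The fit of these 2 states alone called INHBA, TGFBI, TGFBR2 and TGFB1 lower, with 3.95% of all genes called. After etoposide no member passed (0 of 10, 0.0683% of all genes called, 0 members at an unadjusted p under 0.05, and 0 by DESeq2), and the values ran from -0.32 for TGFBR1 to 0.39 for INHBA.

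**Figure D4:**
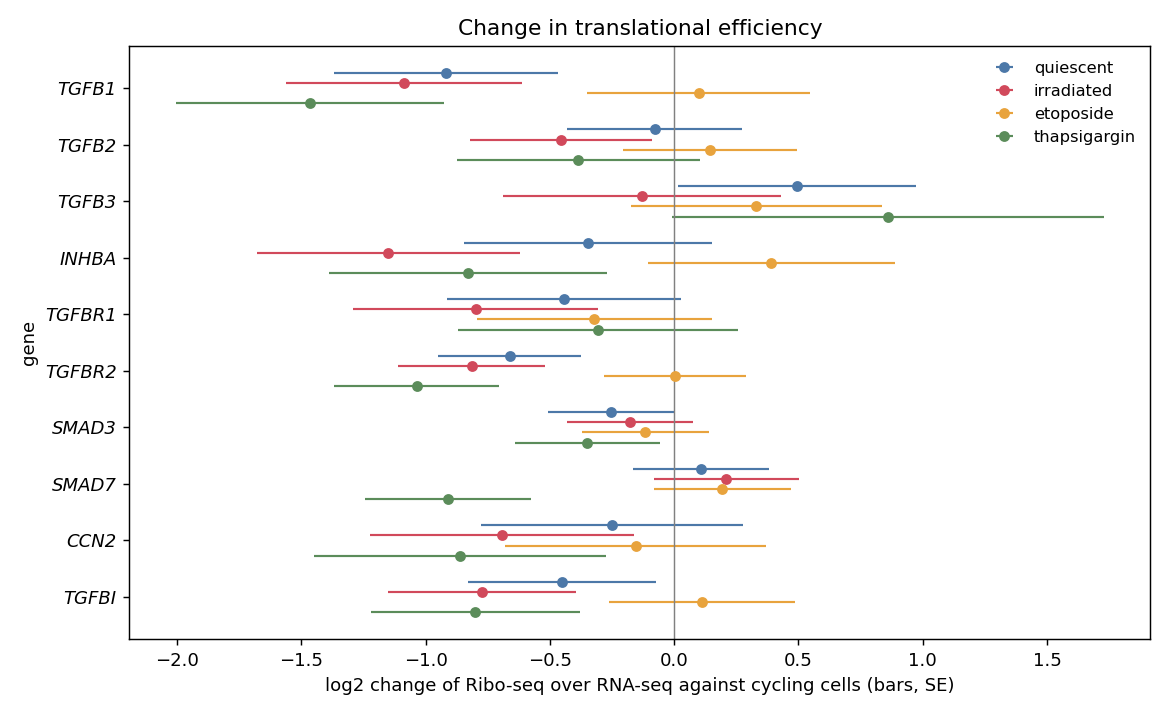
Log2 change of translational efficiency (Ribo-seq over RNA-seq) of the 10 genes against cycling cells in the other 4 states; points are estimates from the fit over all states and bars their standard errors. After radiation 9 of the 10 estimates are below 0, and only TGFBR2 after thapsigargin passed an adjusted p of 0.05.

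All 6 members called lower on ribosomes after radiation encode secreted or membrane proteins, which was seen after the values were known. A list of ligands, receptors, SMADs and targets largely fixes this property, and 8 of the 10 members have it. So 6 of 6 is near the share of the list, and the share among all genes tested was not counted. The intracellular SMAD3 and SMAD7 had Ribo-seq estimates above 0 (0.31 and 0.48). So did 1 of the 8, TGFB3, at 0.34 ± 0.53. The efficiency estimates after radiation of these 8 genes were all below 0, from -1.15 to -0.13, and those of SMAD3 and SMAD7 were -0.18 and 0.21. Beside this, the summed footprints of the 10 fibroblast markers, 4 of which (COL1A1, COL1A2, COL3A1 and DCN) are also on the list of other pathway genes, averaged 24100 CPM after radiation, 31050 after etoposide and 35930 in cycling cells, while their summed RNA averaged 10330, 10270 and 12500 CPM. The markers did not all move together: footprints of VIM and LUM rose from cycling to irradiated cells (9298 to 11520 and 150 to 303 CPM). The other markers fell, with the largest falls in CPM for COL1A1 (12280 to 4615) and COL1A2 (9671 to 4786). The part of a shift common to secreted or membrane genes in the members' values was not tested.

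In quiescent cells no member passed in RNA-seq against cycling cells (0 of 10, where 15.6% of all genes were called, 5.18% higher and 10.4% lower). At an unadjusted p under 0.05 there were 2 lower members, INHBA and TGFBI, and DESeq2 called 0. Without quiescent RNA-seq replicate 3, INHBA, TGFBR1 and TGFB2 were lower (edgeR adjusted p 0.00249, 0.045 and 0.0479), with 16.9% of all genes called. In Ribo-seq 1 of 10 was lower, TGFBR2 (log2 -0.81 ± 0.22, adjusted p = 0.016), where 22.4% of all genes were called (8.15% higher and 14.2% lower), and the call ended without cycling Ribo-seq replicate 3 (0.0623). With the replicate number as a block, TGFB1 and INHBA were lower as well (log2 -0.95 ± 0.26 and -1.08 ± 0.35, adjusted p = 0.0215 and 0.0462), 3 of 10 where 23.1% of all genes were called. The quiescent libraries spread more than those of the other states: the median coefficient of variation of the 10 genes was 47.5% in Ribo-seq and 23.3% in RNA-seq, against 9.55 to 18.7% and 7.75 to 12.5% in the other states. All 8 secreted or membrane members were lowest in quiescent Ribo-seq replicate 1 and highest in replicate 3. SMAD3 and SMAD7 were also highest in replicate 3, but lowest in replicate 2. In RNA-seq 6 of the 8 were lowest in quiescent replicate 1 and 5 were highest in replicate 3. The summed fibroblast markers of the quiescent Ribo-seq libraries rose in the same order, with 17680, 30720 and 37280 CPM in replicates 1, 2 and 3. Without replicate 3 there were 6 lower members in Ribo-seq (TGFBR2, TGFB1, INHBA, TGFBI, TGFBR1 and CCN2), with 25% of all genes called, and without replicate 1 TGFBI was also called lower (0.0492). Efficiency had 0 of 10 members and 0% of all genes called, with 1 member, TGFBR2, at an unadjusted p under 0.05 and 0 by DESeq2.

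Set against quiescent cells, etoposide cells had more of most members. RNA of MKI67, a marker of dividing cells, averaged 155 CPM in cycling, 81.0 in quiescent, 14.6 in irradiated and 6.43 in etoposide cells. Its footprints averaged 203, 93.5, 11.1 and 10.6 CPM in the same order. How far the quiescent cells still divided was not tested. In RNA-seq 7 of 10 were higher and 0 lower (41.7% of all genes called, 21.1% higher), with CCN2 at log2 1.54 ± 0.27 and TGFB2 at 1.52 ± 0.17 (adjusted p = 0.000605 and 1.84e-05), and INHBA 2.30-fold higher (adjusted p = 0.000459). In Ribo-seq 6 of 10 were higher and 0 lower (35.8% of all genes called, 19% higher), led by INHBA at 1.96 ± 0.40 (adjusted p = 0.00206). The RNA call of TGFB3 (adjusted p 0.0242) ended without etoposide replicate 1 or 3 or quiescent replicate 1 or 3 (0.058 to 0.073), and that of TGFBR1 (0.0486) without any of these 6 libraries but quiescent replicate 3 (0.0648 to 0.127). On ribosomes SMAD7 lost its call without any library but quiescent replicate 3 (0.0502 to 0.11), and TGFBR1 without etoposide replicate 1 (0.0651) or 3 (0.0805). Without quiescent Ribo-seq replicate 3, TGFB1 and TGFBI were also higher (0.00332 and 0.0165).

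Irradiated cells differed from quiescent cells in 2 members in RNA-seq, TGFB3 higher (log2 0.72 ± 0.21, adjusted p = 0.0307) and TGFBI lower (-1.01 ± 0.13, adjusted p = 0.000135), with 18.7% of all genes called (9.01% higher and 9.7% lower). The TGFB3 call ended without irradiated replicate 1 or 2 or quiescent replicate 1 or 3 (0.0733 to 0.106). Without quiescent RNA-seq replicate 1, INHBA and TGFBR1 were lower (0.0346 and 0.0107), and without replicate 3 TGFB2 was higher (0.0169). In Ribo-seq only TGFBI of the 10 was called (-1.32 ± 0.31, adjusted p = 0.0111), with 14.6% of all genes called (7.22% higher and 7.33% lower). That call ended without irradiated Ribo-seq replicate 1 (0.0549). Without quiescent Ribo-seq replicate 1, 6 members were lower after radiation than in quiescent cells (TGFBI, INHBA, TGFBR1, CCN2, TGFB1 and TGFBR2), with 20.4% of all genes called. Both senescent states share the quiescent libraries here.

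The members went in different directions between thapsigargin and cycling libraries, a comparison in which the drug, the medium and the share of unmapped reads cannot be told apart. In RNA-seq INHBA and SMAD7 rose, INHBA 3.42-fold (log2 1.77 ± 0.25, adjusted p = 0.000287), and TGFBI, TGFB2, TGFB3 and SMAD3 fell, where 24.5% of all genes were called (11.7% higher and 12.8% lower). In Ribo-seq SMAD7 rose, and TGFBI, TGFB2, SMAD3, TGFB1 and TGFBR1 fell, where 44.6% of all genes were called (21.1% higher and 23.6% lower). TGFB2 fell 2.44-fold in RNA (adjusted p = 0.000806) and 3.19-fold on ribosomes (adjusted p = 0.00575). INHBA footprints differed by log2 0.94 ± 0.44 (adjusted p 0.101), although both libraries lay above every cycling library. The Ribo-seq calls of TGFB1 (0.0234) and TGFBR1 (0.0264) did not hold without thapsigargin Ribo-seq replicate 2 (0.124 and 0.21), and TGFB1 also lost its call without replicate 1 (0.0837) or cycling replicate 3 (0.064), as did TGFBR1 without cycling replicate 2 (0.0607). Without thapsigargin Ribo-seq replicate 2, 3 members were called in place of 6. On the 2 states alone 8 members were called, with 30.8% of all genes, and without the quiescent libraries 9, with 47.7%, INHBA being higher in both (0.0113 and 0.000243).

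Efficiency after thapsigargin had estimates below 0 for 9 of the 10 members, with a median of -0.815 against -0.093 for all genes tested. Only TGFBR2, whose RNA did not fall, was called (log2 -1.04 ± 0.33, edgeR adjusted p = 0.03). Of all genes, 20.8% were called (9.47% higher and 11.3% lower). The call of TGFBR2 ended without either cycling RNA-seq library (0.0771 and 0.0677), cycling Ribo-seq replicate 3 (0.0582), thapsigargin RNA-seq replicate 2 (0.101) or thapsigargin Ribo-seq replicate 1 (0.0619). Estimates for TGFB1 and SMAD7, -1.47 ± 0.54 and -0.91 ± 0.33, lay just outside the threshold (adjusted p 0.0559 and 0.0556). TGFB1 passed without thapsigargin RNA-seq replicate 1 (0.0105) and SMAD7 without cycling Ribo-seq replicate 2 (0.0411) or thapsigargin Ribo-seq replicate 2 (0.0271), and 6 members were called without the quiescent libraries, with 26.6% of all genes called. The thapsigargin Ribo-seq libraries were counted on another gene list than the other 12, and so the state and the list cannot be told apart in these comparisons.

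The other genes of the pathway were read from a list of 71, of which 68 were tested in RNA-seq and 66 in Ribo-seq. Between irradiated and etoposide cells, 23 were lower and 8 higher in RNA-seq, and 27 lower and 6 higher in Ribo-seq, with medians of -0.39 and -0.85. These were 45.6% and 50.0% of those tested, against 22.6% (12.9% lower, 9.67% higher) and 22.5% (13.7% lower, 8.82% higher) of all genes. Ligand traps, which bind ligands outside the cell, had 5 lower of 7 in both assays. Among them in Ribo-seq was NOG, the antagonist noggin of bone morphogenetic proteins (BMPs). It was at 0.304 ± 0.274 CPM after radiation and 3.28 ± 0.365 after etoposide (SD, n = 3 each, log2 -3.23 ± 0.59, edgeR adjusted p = 0.00189). The irradiated level came from 4 footprints in all, where 3 counts over the group correspond to 0.258 CPM, so the size of this difference is uncertain. Receptors and co-receptors had 4 lower of 10 in RNA-seq and 5 lower of 9 in Ribo-seq, and 0 higher in both. The signal SMADs went the other way, with 2 of 5 higher after radiation in RNA-seq (SMAD2 and SMAD4, named after their values were seen) and 3 of 5 in Ribo-seq.

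**Figure D5:**
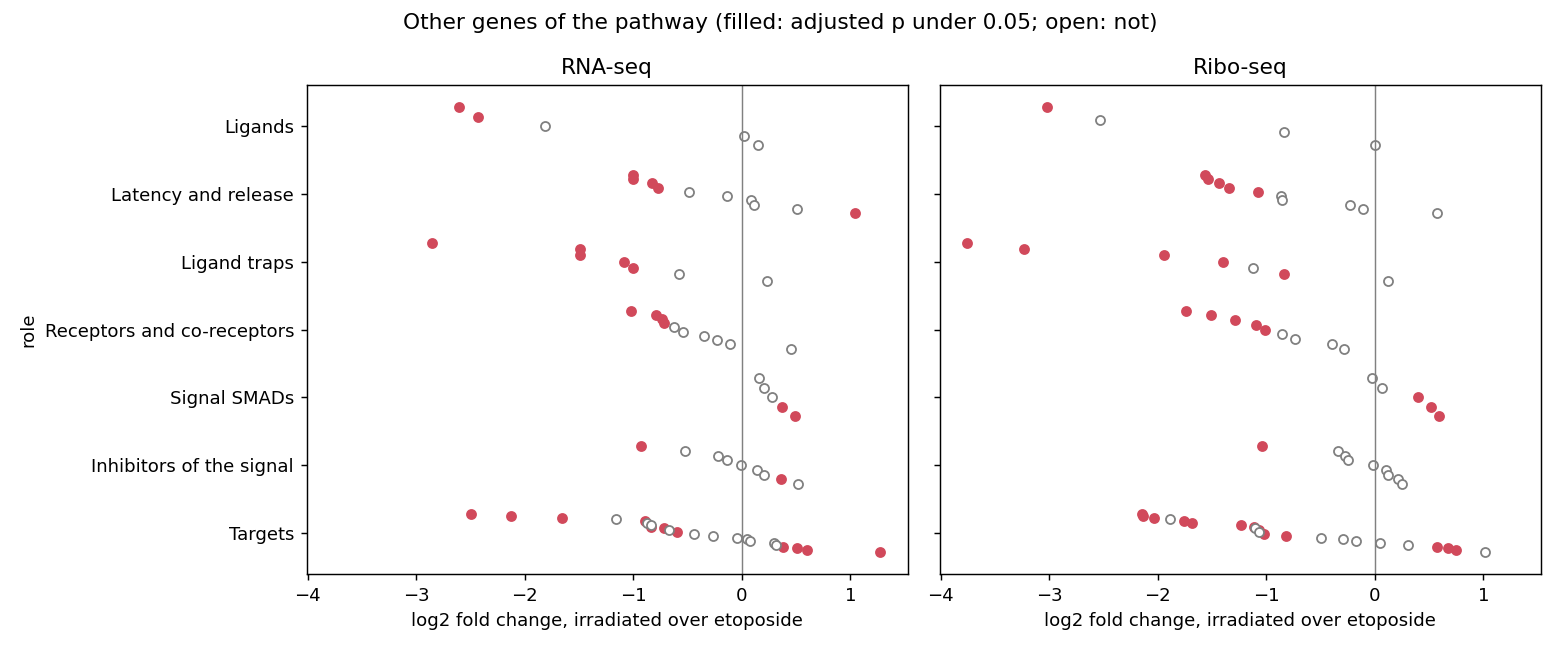
Log2 fold change of irradiated over etoposide cells for the other pathway genes, by role, in RNA-seq (left) and Ribo-seq (right); each point is 1 gene and filled points have an adjusted p under 0.05. Receptors and ligand traps have filled points to the left of 0 only, and the signal SMADs to the right only.

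Among 22 further targets, 7 were lower and 4 higher after radiation than after etoposide in RNA-seq, and 10 lower and 3 higher in Ribo-seq. These were 50.0% and 59.1% of those tested, against 22.6% and 22.5% of all genes. ELN, which encodes elastin, was among the higher ones in RNA (9.81 ± 1.91 CPM against 4.04 ± 0.545, adjusted p = 0.0349), and TGFB1I1 and SNAI2 among those in Ribo-seq (log2 0.75 ± 0.16 and 0.67 ± 0.22, adjusted p = 0.00396 and 0.0449). The ligand BMP2 was lower after radiation than after etoposide in RNA (0.879 ± 0.218 against 5.40 ± 1.95 CPM, adjusted p = 0.000244), and LTBP4, which binds latent TGF-beta in the matrix, was higher (24.5 ± 2.67 against 11.9 ± 3.49 CPM, adjusted p = 0.0296).

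Against cycling cells, radiation lowered 21 and raised 5 of the 68 in RNA-seq and lowered 30 and raised 4 of the 66 in Ribo-seq, 38.2% and 51.5% of those tested against 34.9% and 40.5% of all genes. In Ribo-seq these were 13 lower of 22 targets, 6 of 7 ligand traps, 6 of 9 receptors and 0 of 5 signal SMADs. ID1, an early target of BMPs, was at 10.4 ± 2.98 CPM of RNA after radiation (n = 3) against 48.7 ± 13.1 (n = 2) in cycling cells (log2 -2.23 ± 0.24, adjusted p = 1.11e-05), while BMP4 and SMURF2, a ubiquitin ligase that acts on the receptors, rose in both assays (RNA log2 1.15 ± 0.22 and 0.69 ± 0.18, Ribo-seq 1.18 ± 0.24 and 0.94 ± 0.20). NOX4, an oxidase gene induced by TGF-beta, had 0.290 ± 0.502 CPM of footprints after radiation against 3.88 ± 0.643 (SD, n = 3 each; adjusted p = 0.00129), from 3 footprints in all after radiation.

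After etoposide 12 of the 68 were higher and 10 lower than in cycling cells in RNA-seq, and 11 higher and 8 lower of the 66 in Ribo-seq, 32.4% and 28.8% of those tested against 34.6% and 33.9% of all genes. All 5 other ligands tested rose in RNA-seq, but INHBB, which encodes another activin subunit, had 1 count over both cycling libraries and 51 over the etoposide ones, and COMP likewise 1 and 71, so their fold changes are uncertain. BMP2 and BMP6 footprints rose from 0.490 ± 0.126 to 5.09 ± 0.911 CPM and from 0.222 ± 0.124 to 3.06 ± 0.685 CPM (SD, n = 3 each, edgeR adjusted p = 0.000231 and 0.00361). The cycling levels came from 17 and 8 footprints in all, so the sizes of these rises are uncertain too. NOX4 fell in both assays (log2 -1.45 ± 0.23 in RNA and -1.93 ± 0.52 on ribosomes), and ELN RNA fell (-1.29 ± 0.44, adjusted p = 0.036), as did the footprints of the BMP trap GREM1 (-1.35 ± 0.31, adjusted p = 0.00415).

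In quiescent cells 11 of the 68 were lower and 2 higher in RNA-seq, and 14 of the 66 lower and 5 higher in Ribo-seq, 19.1% and 28.8% of those tested against 15.6% and 22.4% of all genes. FST, which encodes the activin trap follistatin, was at 103 ± 46.8 CPM of RNA (n = 3) against 294 ± 5.44 (n = 2) in cycling cells and fell in both assays (log2 -1.52 ± 0.29 and -1.81 ± 0.32, adjusted p = 0.00384 and 0.00176). ID1 RNA fell by 1.26 ± 0.23 on the log2 scale, while RNA of SMAD1, a BMP signal SMAD, and TGIF1, a repressor of SMAD targets, rose (0.50 ± 0.15 and 0.43 ± 0.13, adjusted p = 0.0398 and 0.0379). Footprints of the matrix gene COMP rose from 0.572 ± 0.165 to 3.97 ± 2.85 CPM (SD, n = 3 each, edgeR adjusted p = 0.0207). The cycling level of COMP came from 19 footprints in all, so the size of this rise is uncertain. Footprints of ACTA2, the smooth muscle actin of myofibroblasts, rose as well (3697 ± 1274 against 2022 ± 118 CPM, SD, n = 3 each, edgeR adjusted p = 0.0136).

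After thapsigargin 14 of the 68 were higher and 15 lower in RNA-seq, and 12 higher and 26 lower of the 66 in Ribo-seq, 42.6% and 57.6% of those tested against 24.5% and 44.6% of all genes. NOG RNA rose from 2.12 ± 0.570 to 26.3 ± 7.31 CPM (SD, n = 2 each; adjusted p = 5.65e-05), and BMP4 RNA fell from 18.9 ± 6.30 to 1.03 ± 0.135 CPM (adjusted p = 8.36e-07). COL3A1 RNA, a fibrillar collagen, fell by 2.65 ± 0.41 on the log2 scale. All 10 latency and release genes had Ribo-seq estimates below 0 and 6 passed, where 6331 of all 11766 genes tested lay below 0. BMPR1A, a BMP receptor, had 0 footprints in both thapsigargin libraries against 7.22 ± 2.68 CPM (SD, n = 3) in cycling cells, at least 9.57-fold lower at a limit of 3 counts over the group, while its RNA was 86.4 and 114 CPM on average in these states. The other gene list of these libraries cannot be told apart from the state here. In efficiency 11 of the list were lower, with the co-receptor gene TGFBR3 at -3.07 ± 1.01, and 2 were higher, the signal repressor gene SKIL (log2 0.94 ± 0.24, adjusted p = 0.00717) and SMAD4 (0.75 ± 0.20, adjusted p = 0.00892), together 19.7% of those tested against 20.8% of all genes.

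Across the 13 RNA-seq libraries, the genes whose log2 levels followed each member most closely were named by Pearson's r, as a description, since the points share states and depth. INHBA went with DNAJC3 (r = 0.983) and FICD (0.977), SMAD7 with DYRK3 (0.976) and RCAN1 (0.974), and TGFB2 with TFPI (0.979) and ST3GAL5 (0.978). TGFBR2 went with NPC1 (0.978) and CLN8 (0.974), TGFBR1 with P4HA1 (0.973) and SLC39A6 (0.971), CCN2 with SLC31A1 (0.972) and IGFBP3 (0.954), and TGFBI with DIRAS3 (0.963) and PTGS1 (0.949). For TGFB1 these were NCOA5 (0.972) and UBP1 (0.956), for TGFB3 IL6R (0.962) and ABCC5 (0.943), and for SMAD3 SUFU (0.974) and MBD5 (0.968). Among the members themselves, TGFBR2 and CCN2 were the closest pair (r = 0.911) and INHBA and SMAD3 the most opposed (r = -0.828).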

How the data were processed

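RNA-seq and Ribo-seq were measured in 27 libraries of IMR90 cells. The authors deposited 1 table a library with unnormalized gene-level counts for both strands. The submitters' processing notes name STAR 2.7.10b, DESeq2 1.36.0, bcl2fastq and hg38, and the annotation release is not given in the sources used here. The counts are listed for 62703 gene IDs in all RNA-seq and the thapsigargin Ribo-seq libraries and for 60664 in the other 12, and the 60534 shared IDs were used. Of these, 60461 matched a symbol and 19310 were protein coding by RefSeq symbol. Counts from the reverse strand (RNA-seq) and the forward strand (Ribo-seq) were used. The layout also lists unmapped, multimapping, no-gene and ambiguous reads, which entered neither library sizes nor fits (unmapped 1.35 to 40.6% of reads, no gene 1.45 to 12.8%).

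Library sizes were scaled by TMM within each assay, genes with low counts were removed by filterByExpr, and edgeR 4.0.16 (R 4.3.3) fitted a robust quasi-likelihood model over all 5 states, since they share 1 estimate of the spread. P-values were adjusted by Benjamini and Hochberg over all genes tested. Efficiency was the interaction of assay and state, on 11715 genes. CPM, SD and ranges come from the scaled counts. The fits were tested on simulated data. Alternatives were DESeq2 1.42.0, RLE scaling, no filter, both strands, all biotypes, a replicate block, only the groups compared, each library left out, and, chosen after seeing the data, fits without the quiescent or the thapsigargin libraries. The members and the lists were chosen with earlier results of these data known. Other pathway genes were named from the 2 largest changes in each direction that passed, per comparison, and like patterns as the 2 highest correlations per member. Some genes that this rule names are not reported here. Intervals of 2 SE come from the fit and cover the spread between these libraries. The limit of 3 counts for a count of 0 covers counting error only. Same-numbered quiescent and cycling Ribo-seq libraries deviated together (correlations 0.154, 0.272 and 0.264 over genes), a pairing seen in the data and named by no label, so the value with a replicate block is given beside that comparison.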

Additional observations from a re-analysis of the deposited data

Results flagged for a closer look

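Estimates against the same cycling cells lay below 0 after radiation and above 0 after etoposide for several members, not all of which passed against cycling cells, and the difference between the 2 senescent states passed edgeR's test for each of the following. In RNA-seq the difference, irradiated minus etoposide on the log2 scale, was -1.65 for CCN2, -1.47 for INHBA, -1.17 for TGFBR1 and -1.07 for TGFBR2. In Ribo-seq it was -3.02 for INHBA, -2.20 for CCN2, -1.89 for TGFBR2, -1.76 for TGFB2 and -1.66 for TGFBR1. No state had 4 or more libraries of a kind, so no library was tested as an outlier.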

How the results depend on the processing

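Of 190 member values, 60 passed, and 38 of these passed under every alternative. No value that passed changed sign, and 38 that did not pass changed sign somewhere, the largest of them 0.86 in size (TGFB3 efficiency after thapsigargin). Counts of members called moved as follows. Against cycling cells, the RNA count for quiescent cells (0) was 1 with the replicate block and 0 to 3 with 1 library left out. For radiation (2) it was 7 on the groups compared, 4 without the quiescent libraries and 1 to 2 with 1 left out, and for etoposide (5) it was 7 on the groups compared, 7 without the quiescent libraries and 3 to 4 with 1 left out. Irradiated against quiescent cells (2 in RNA) gave 1 to 3 with 1 left out. In Ribo-seq, quiescent cells (1) gave 3 with DESeq2, 3 with the replicate block, 0 on the groups compared and 0 to 6 with 1 left out. Etoposide (3) gave 5 with DESeq2, 7 on the groups compared and 6 without the quiescent libraries. Irradiated against quiescent cells (1) gave 0 on the groups compared and 0 to 6 with 1 left out, and thapsigargin (6) gave 3 to 6 with 1 left out, 8 on the groups compared and 9 without the quiescent libraries. Efficiency after radiation (0) gave 6 on the groups compared and 3 without the quiescent libraries, irradiated against etoposide (0) gave 4 and 3, and thapsigargin (1) gave 3 with DESeq2, 3 with RLE, 2 without the filter, 3 with all biotypes, 2 with the block, 2 on the groups compared, 6 without the quiescent libraries and 0 to 2 with 1 left out. The causes were not tested. Same-numbered libraries of different states correlated from -0.187 to 0.474 in RNA-seq and -0.188 to 0.272 in Ribo-seq, and RNA-seq with Ribo-seq libraries of a state from -0.021 to 0.572. Between states, all pairs of a comparison exceeded 0.1 only for quiescent and cycling cells in Ribo-seq and thapsigargin and cycling cells in RNA-seq. The latter are 2 pairs with 1 value (0.174), since deviations in a group of 2 libraries mirror each other. Between assays, all same-numbered pairs exceeded 0.1 in etoposide cells (0.134, 0.382 and 0.199) and in cycling cells (0.142 and 0.193). The main efficiency fit used no pairing. In the other comparisons and states at least 1 pair did not exceed 0.1, and no label names a pairing. Over all comparisons the block lost 1 and gained 7 member calls. The shallow thapsigargin Ribo-seq libraries limit TGFB3, with 0 and 5 counts.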
